A study of Homo sapiens with 1 sample.

Results

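The 9 genes described here belong to the p53 pathway: MDM2, MDM4, CDKN1A, PHLDA3, BAX, BBC3, RPS27L, SESN1 and PTCHD4. They were taken by symbol from the 33538 genes of the count table, and each matched 1 row. They were chosen by the levels and the co-detection they had shown in earlier results of this library, and the contractile state and phase belonged to that choice, so the values below describe the genes and test nothing. The study asked how HAR123, a human accelerated region within the gene SMG6, affects the making of neural progenitor cells (NPCs). The data were 1 single-cell library (10x Genomics 3′ chemistry) of hHAR123 cells of genotype WT, meaning H9 cells, a line of human embryonic stem cells, that carry HAR123 in its human form. Cells of independent clones had been pooled by genotype before loading. They had been cultured in N2 medium with dorsomorphin at 1 μM and SB431542 at 10 μM, first for 2 days with a Rock inhibitor at 5 μM and then for 5 days as rotating aggregates, and had been replated on Matrigel in N2 and Gem21 medium for 7 days. Dorsomorphin and SB431542 block BMP and activin signalling. No library of another genotype was used here.

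Cells with 2000 to 10000 detected genes and a mitochondrial share of unique molecular identifiers (UMIs) below 0.1 were used, 13925 of 14726 barcodes. They held a median of 17900 UMIs (range 3167 to 118188). A single library has no replicates, and differences are therefore given with counting error in place of a test. Intervals in parentheses are exact, at 95%, and leave out any spread between cultures. Those of levels and of their ratios treat pooled UMIs as independent, so they leave out the spread between cells as well. A level is the summed UMIs of a gene per 1000000 UMIs of the same cells (CPM). A cell was called contractile-high when ANXA1, TFPI2 and CTGF, which are high in spread, contractile cells, together reached 5 UMIs per 10000. This held for 1584 cells (11.4%), and 161 cells lay between 4 and 6. The other 12341 cells are called contractile-low. Depth differed between these states, with medians of 47217 and 16910 UMIs, so each share of cells was taken after thinning every cell to 5000 UMIs, which left out 28 cells, of which 3 were contractile-high. Scores of S and G2/M genes, which include no gene of the 9, called 3776 cells G1, 5637 S and 4512 G2/M. The higher score lay within 0.05 of the limit for G1 in 1133 cells.

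All 7 listed contractile markers were at least 1.5-fold higher in contractile-high cells (median ratio 7.795), and all 5 forebrain markers were at least 1.5-fold lower (median ratio 0.225). Of 5 neural progenitor markers 2 were higher and 2 lower by this fold. Of all genes with at least 50 UMIs 12.3% were higher and 41.1% lower, with a median ratio of 0.7602. SOX2 was at 117 CPM in contractile-high and 412 CPM in contractile-low cells, and PAX6 was at 20.5 and 54.7 CPM. The intermediate filament genes NES and VIM were higher, at 666 against 238 CPM and 4302 against 904 CPM. The median mitochondrial share was 5.12% in contractile-high and 5.16% in contractile-low cells.

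p53 is a transcription factor that is kept at a low amount in unstressed cells because MDM2, a ubiquitin ligase, marks it for destruction, while the related protein MDM4 (MDMX) holds its activity down. When DNA damage or another stress frees p53, it binds DNA at its response elements and raises transcription of many genes. Among them is MDM2 itself, which closes a negative feedback loop. Other targets stop the cell cycle, start apoptosis through mitochondria or alter metabolism. Human pluripotent stem cells and neural progenitors are known to be sensitive to p53 activity.

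In GRCh38 with GENCODE annotation, the regulators were MDM2 (ENSG00000135679) on chromosome 12 from 68808177 to 68845544 and MDM4 (ENSG00000198625) on chromosome 1 from 204516379 to 204558120, both on the plus strand. The arrest gene was CDKN1A (ENSG00000124762) on chromosome 6 from 36676460 to 36687337, plus strand. The genes of apoptosis were BAX (ENSG00000087088) on chromosome 19 from 48954815 to 48961798, plus strand, BBC3 (ENSG00000105327) on chromosome 19 from 47220822 to 47232766, minus strand, and PHLDA3 (ENSG00000174307) on chromosome 1 from 201464278 to 201469237, minus strand. The remaining genes were RPS27L (ENSG00000185088) on chromosome 15 from 63125872 to 63158021, SESN1 (ENSG00000080546) on chromosome 6 from 108984309 to 109094846 and PTCHD4 (ENSG00000244694) on chromosome 6 from 47856673 to 48111197, all on the minus strand. MDM2 overlaps a listed gene of the same strand (ENSG00000256325), so some of its reads could belong to that gene. RPS27L has a close paralog, RPS27, and reads shared by both could not be assigned. All 9 genes had over 50 UMIs in each comparison below. The lowest total was 2880 UMIs for PHLDA3 and the highest was 82344 UMIs for RPS27L. The chemistry tags transcripts near the 3′ end and is not scaled by length, so levels are compared between cells and not between genes.

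Response elements of p53 consist of a pair of 10-base elements. The consensus full site without a spacer was searched for on both strands within 2500 bases on either side of the annotated start of 19599 protein-coding genes, and a match had to keep the 4-base core of both elements. The 4 members whose best match reached 17 of the 20 bases are shown, since 1 of them kept every base of the consensus and together they show how the match differs between members. The cores are in capitals, and each is written 5′ to 3′ on the plus strand of GRCh38.
PTCHD4: gggCAAGtctgggCAAGcct
CDKN1A: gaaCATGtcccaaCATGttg
BBC3: ggaCAAGtcaggaCTTGcag
RPS27L: gggCAAGtcactaCATGccc

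The PTCHD4 match (chr6:48111198-48111217) kept all 20 bases and lay just outside the gene, centred at position -10 relative to its start. Of the genes scanned, 0.0561% had a match as good. The CDKN1A match (chr6:36676449-36676468) kept 18 bases, and 2.26% of genes had a match at least as good. It spans the annotated start of the gene and lies at position -2256 relative to the start of the canonical transcript. The BBC3 match (chr19:47231320-47231339) and the RPS27L match (chr15:63157235-63157254) kept 17 bases, which 12.8% of genes reached. The BBC3 match was intronic by annotation and lay at position -130 relative to the canonical start, and the RPS27L match fell in an exon of an annotated transcript, 233 bases after the canonical start. In MDM4, SESN1, BAX and PHLDA3 the best match kept 16, 14, 12 and 11 bases, which 25%, 48.5%, 61.8% and 64.4% of genes reached. MDM2 had no match with both cores in this window, where a site with a spacer or a changed core would not be found. A match is a description of letters, and binding was not measured.

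MDM2 was higher in contractile-high cells, and mainly in those called G1. Its level was 264 CPM (256 to 272) in contractile-high G1 cells, 87.4 CPM (83.6 to 91.3) in S and 87.3 CPM (84.4 to 90.3) in G2/M. In contractile-low cells it was 66.1 CPM (63.8 to 68.4), 59.7 CPM (58.2 to 61.2) and 64.6 CPM (62.98 to 66.3) in these phases. MDM2 thus stood furthest apart in 1 of the 6 combinations, and was also higher in contractile-high cells in S and G2/M. The ratio of contractile-high to contractile-low cells was 3.995 (3.81 to 4.19) in G1, 1.46 (1.39 to 1.54) in S and 1.35 (1.295 to 1.41) in G2/M. The median gene had ratios of 0.801, 0.792 and 0.769 in these phases. MDM2 UMIs were found in 49.04% (43.8 to 54.3%) of contractile-high and 22.2% (20.8 to 23.7%) of contractile-low G1 cells after thinning, and in 85.5% and 48.2% before it.

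MDM4, the other inhibitor of p53, did not follow MDM2. It was at 48.5 CPM (45.1 to 52.1) in contractile-high G1 cells, the lowest of the 6 combinations, and at 90.8 CPM (88.8 to 92.8) in contractile-low G2/M cells, the highest. Over all phases it was 53.4 CPM (51.7 to 55.01) in contractile-high against 85.2 CPM (83.99 to 86.3) in contractile-low cells, a ratio of 0.627 (0.606 to 0.648). That ratio depended on the scale. The median gene had a ratio of 0.7602 in this comparison, and relative to it MDM4 was less than 1.5-fold lower, while in UMIs per cell, where the median gene was 1.91-fold higher, it was 1.57-fold higher. It was below the median gene on both scales, which follow from each other because they differ by a factor shared by all genes.

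CDKN1A encodes p21, an inhibitor of cyclin-dependent kinases that mediates arrest after p53 activation. It had the largest ratio among the 9 genes between the states, 7.67 (7.22 to 8.15). The level was 128 CPM (123 to 134) in contractile-high G1, 30.2 CPM (27.97 to 32.5) in S and 27.2 CPM (25.6 to 28.9) in G2/M cells. Contractile-low cells held 10.6 CPM (9.75 to 11.6) in G1, 5.37 CPM (4.92 to 5.85) in S and 4.86 CPM (4.42 to 5.34) in G2/M. The G1 level was therefore the highest in both states, and the intervals of the states did not overlap in any phase. After thinning, CDKN1A UMIs were found in 29.9% (25.2 to 34.8%) of contractile-high and 2.91% (2.37 to 3.53%) of contractile-low G1 cells (59.6% and 6.01% unthinned).

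The genes of apoptosis did not behave alike. PHLDA3, whose protein competes with AKT for membrane lipids and so lowers survival signalling, was at 44.97 CPM (41.7 to 48.5) in contractile-high G1 cells and at 4.95 CPM (4.35 to 5.605) in contractile-low G1 cells, a ratio of 9.09 (7.85 to 10.6). It was also higher in contractile-high S (16.1 against 4.49 CPM) and G2/M cells (19.3 against 4.399 CPM). Among contractile-low cells its levels in the 3 phases had overlapping intervals. BAX, the pore-forming effector at the mitochondrial outer membrane, had levels of 212 CPM (205 to 219.6) in contractile-high and 102 CPM (99.6 to 105) in contractile-low G1 cells. In contractile-low cells BAX was lowest in G1 and highest in G2/M (125 CPM), the reverse of its order between these phases in contractile-high cells, where G2/M was at 156 CPM. BBC3 encodes PUMA, a BH3-only protein that triggers BAX. It was set apart by phase more than by state, with 26.4 CPM (23.9 to 29.1) in contractile-high and 18.6 CPM (17.4 to 19.8) in contractile-low G1 cells, against 8.297 and 9.63 CPM in G2/M. Over all phases the BBC3 ratio between the states was 1.01 (0.941 to 1.09).

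RPS27L, a ribosomal-protein-like p53 target, was at 614 CPM (602 to 627) in contractile-high G1 cells and between 221 and 272 CPM in the other 5 combinations. The paralog RPS27, which is a ribosomal protein gene, was at 1480.5 CPM in contractile-high and 1961 CPM in contractile-low G1 cells. Its ratio of 0.755 (0.744 to 0.766) lay on the other side of 1 from that of RPS27L, 2.33 (2.27 to 2.397). PTCHD4, a patched-domain protein that represses Hedgehog signalling, was at 164 CPM (158 to 171) in contractile-high and 57.6 CPM (55.5 to 59.7) in contractile-low G1 cells. In G2/M it was at 36.4 CPM (34.6 to 38.4) in the former and 36.2 CPM (35.02 to 37.5) in the latter, so the state difference of PTCHD4 was seen in G1 and S but not in G2/M. SESN1, a stress-induced inhibitor of mTORC1, differed least in G1. Its G1 levels were 47.5 CPM (44.1 to 51.1) and 45.8 CPM (43.97 to 47.7), and in S and G2/M it was lower in contractile-high cells (32.7 against 42.6 CPM in S).

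**Figure D1:**
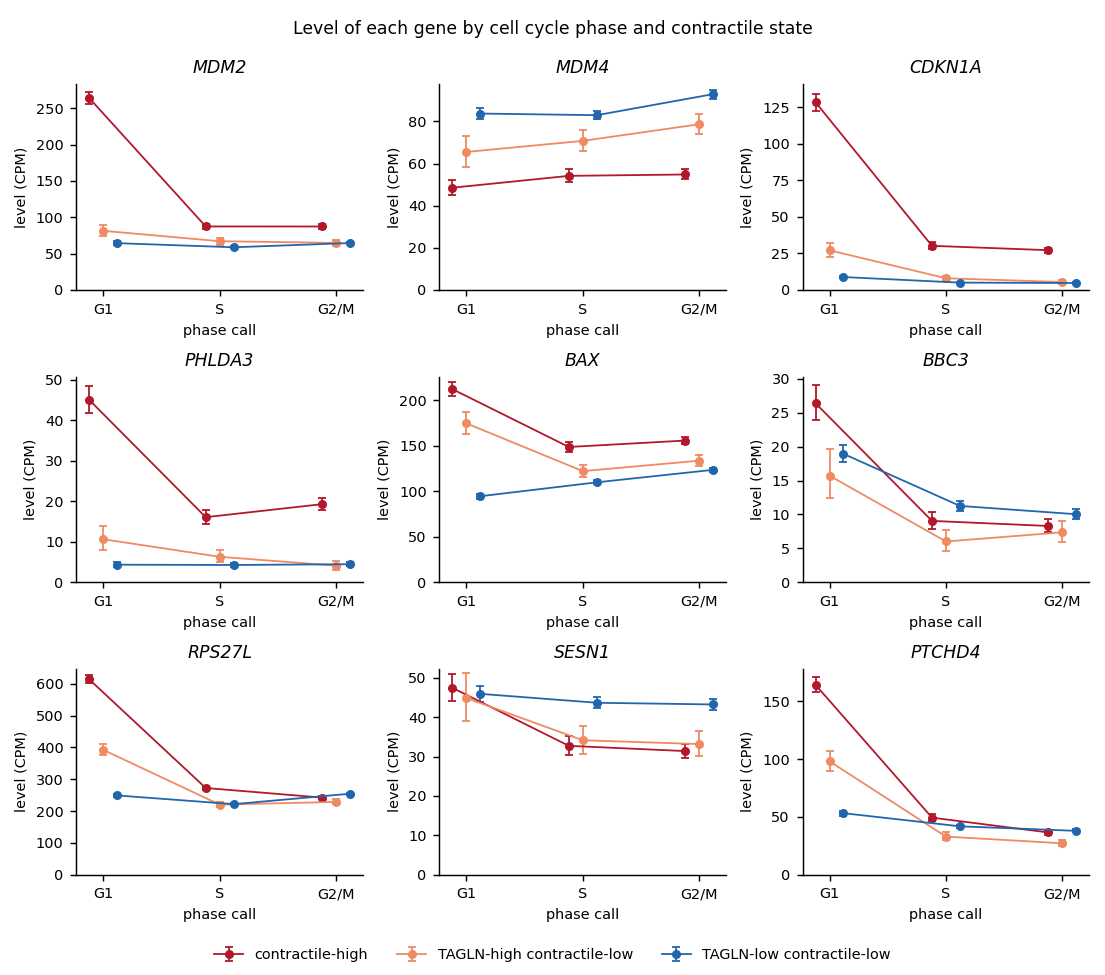
Level of each gene (CPM, y axis) by phase call (x axis) in contractile-high cells and in contractile-low cells with TAGLN at or over (TAGLN-high) or under (TAGLN-low) 10 UMIs per 10000. Points are pooled levels and bars exact 95% Poisson intervals. Contractile-high G1 cells sit highest for MDM2, CDKN1A, PHLDA3, BAX, BBC3, RPS27L and PTCHD4 (MDM2 at 264 CPM) and lowest for MDM4 (48.5 CPM), which in UMIs per cell was higher in contractile-high cells.

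Counted over the list, 4 of the 9 genes (MDM2, CDKN1A, PHLDA3 and PTCHD4) were at least 1.5-fold higher in contractile-high than in contractile-low cells, and 1 (MDM4) was at least 1.5-fold lower in CPM, though not in UMIs per cell. Among all 20571 genes with at least 50 UMIs, 12.3% were higher and 41.1% lower by this rule. The median ratio of the 9 was 1.44, against 0.7602 over all genes. Relative to that median, 6 members were higher (BAX and RPS27L added) and 0 lower, beside 22.6% and 26% of all genes. Within S the counts were 2 higher and 1 lower (11.4% and 36.9% of all genes) and within G2/M 2 and 1 (11.8% and 39.7%). Within G1 the counts were 6 higher and 1 lower, beside 14.6% and 37.6% of all genes. The summed level of the 9 genes was 1550.3 CPM (1531 to 1570.2) in contractile-high G1 cells and 651 CPM (644 to 658) in contractile-low G1 cells, a ratio of 2.38 (2.34 to 2.42). In S it was 1.21 (1.19 to 1.23) and in G2/M 1.06 (1.04 to 1.07). Without the cells that held a UMI of PINCR, a p53-induced RNA described below, the ratio over all phases was 1.32 in place of 1.39, and PTCHD4 no longer reached 1.5-fold. With the contractile limit at 20 UMIs per 10000, which puts the cells at 5 to 20 among the contractile-low ones, the PTCHD4 log2 ratio was 0.24 in place of 0.62 and that of CDKN1A 1.94 in place of 2.94. Immediate early and heat shock genes, which respond to stress and handling, also differed between the states, with 7 of 10 at least 1.5-fold higher (summed level 383 against 196 CPM). Their part and that of depth in the result were not tested.

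Along the contractile sum the genes did not rise in step. CDKN1A went from 4.61 CPM below 0.5 UMIs per 10000 (8935 cells) to 21.4 CPM at 2 to 5 (477 cells) and 50.1 CPM at 5 to 20 (845 cells), with 45.7 CPM at 20 to 50 (703 cells). PHLDA3 went from 4.01 to 9.86, 22.6 and 23.9 CPM over the same bins. MDM2, PTCHD4 and RPS27L were highest at 5 to 20 and lower beyond it, and BAX was nearly level from 2 onwards (159, 167 and 163 CPM). MDM2 was at 136 CPM (132 to 139.6) there and at 111 CPM (108 to 114) at 20 to 50, and PTCHD4 was at 76.99 CPM (74.2 to 79.9) and 56.6 CPM (54.3 to 59.1). MDM4 and SESN1 were lower in each bin than in the bin before, up to 50 UMIs per 10000 from 87.4 to 50.5 CPM for MDM4. The topmost bin (50 or more) held 36 cells. Median depth rose from 16645 UMIs in the lowest bin to 53839 at 20 to 50 and was 48310 in the topmost bin. The part of depth in these orders was not tested.

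**Figure D2:**
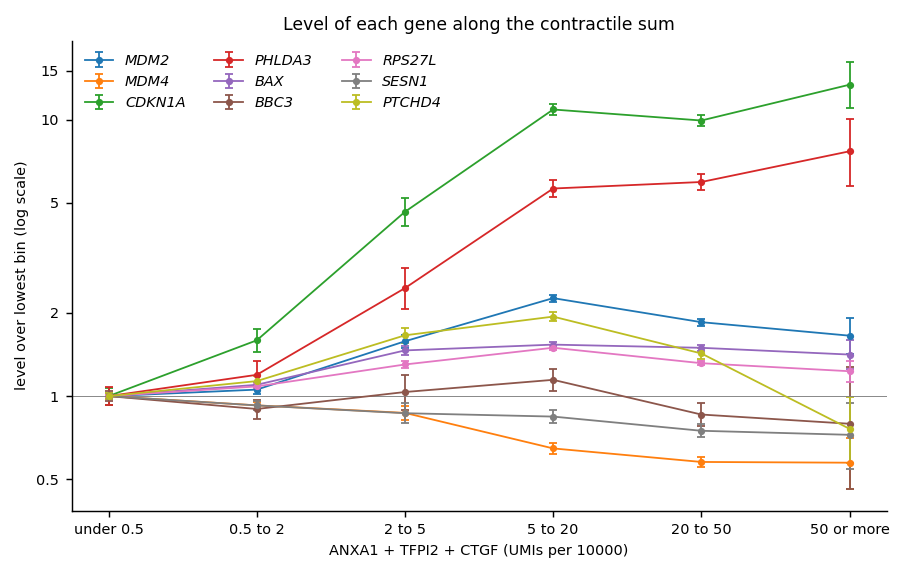
Level of each gene relative to its level in the lowest bin (y axis, log scale) against the summed ANXA1, TFPI2 and CTGF UMIs per 10000 (x axis, 6 bins). Bars are exact 95% Poisson intervals of the level divided by the level of the lowest bin. CDKN1A and PHLDA3 stand above the other genes from the bin at 2 to 5 onwards, and MDM4 lies lowest of the 9 at 20 to 50 (50.5 CPM), on the CPM scale.

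Contractile-low cells with TAGLN, a smooth muscle actin-binding protein, at 10 or more UMIs per 10000 were examined as cells between the states (1044 cells). Against the 11297 TAGLN-low cells, 2 members differed by at least 1.5-fold. CDKN1A was higher, at 10.02 CPM (8.91 to 11.2) against 5.75 CPM (5.43 to 6.09), and BBC3 was lower, at 8.25 CPM (7.24 to 9.36) against 12.5 CPM (11.98 to 12.9). Neither call held throughout. With the contractile limit at 2 UMIs per 10000, which moves cells of the bin at 2 to 5 out of the contractile-low cells, CDKN1A was no longer 1.5-fold higher. The BBC3 call was lost in UMIs per cell, in thinned cells, with the contractile limit or the TAGLN limit at 20 and relative to the median gene. The other 7 genes had ratios from 0.807 to 1.38. Of all genes 6.25% were higher and 21.4% lower. Within G1, 5 members were at least 1.5-fold higher in TAGLN-high cells (CDKN1A, PHLDA3, BAX, RPS27L and PTCHD4) and 0 lower, beside 7.92% and 20.8% of all genes. In G1, PTCHD4 was at 98.1 CPM (89.5 to 107) in TAGLN-high and 53.2 CPM (51.05 to 55.3) in TAGLN-low cells, and MDM2 was at 81.4 and 64.4 CPM.

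Between phases over all kept cells, 5 of the 9 genes (MDM2, CDKN1A, PHLDA3, BBC3 and PTCHD4) were at least 1.5-fold lower in S than in G1, where 10.4% of genes were, and 0 were higher, where 9.3% were. The same 5 genes were lower in G2/M than in G1 (14.8% of all genes), and 0 were higher (7.29% of all genes). In UMIs per cell, where deeper cells weigh on the ratio, CDKN1A alone of the 9 was 1.5-fold lower in G2/M, while MDM4 and BAX were 1.5-fold higher, as were 57.6% of all genes (median 1.59-fold). These comparisons share the G1 cells. The phase difference lay largely in contractile-high cells. There the ratio of G2/M to G1 was 0.222 (0.208 to 0.237) for PTCHD4, 0.212 (0.197 to 0.229) for CDKN1A, 0.331 (0.316 to 0.346) for MDM2 and 0.394 (0.383 to 0.406) for RPS27L. In contractile-low cells the ratios were 0.6296 (0.599 to 0.662) for PTCHD4, 0.457 (0.402 to 0.519) for CDKN1A, 0.978 (0.937 to 1.02) for MDM2 and 0.952 (0.932 to 0.973) for RPS27L. Within contractile-low cells 2 genes (CDKN1A and BBC3) were still 1.5-fold lower in S (10.7% of all genes) and 3 (with PTCHD4) in G2/M (13.1% of all genes). None was higher in either, where 10.2% and 8.36% of all genes were. With each cell given the same weight, 2 genes were lower in S and 3 in G2/M, beside 10.6% and 14.4% of all genes. MDM4 differed little between phases in either state, with G2/M to G1 ratios of 1.11 (1.07 to 1.15) and 1.13 (1.04 to 1.23). Some genes of the phase lists are themselves lowered through p21, so the phase calls are not fully separate from the pathway.

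Within single cells the members were found together more often than their separate shares would give, with MDM4 as the exception. At 5000 UMIs per cell, MDM2 UMIs were found in 25.1% of 13897 cells, MDM4 in 32.98%, CDKN1A in 3.65%, PHLDA3 in 2.62%, BAX in 40.2%, BBC3 in 5.99%, RPS27L in 62.7%, SESN1 in 17.5% and PTCHD4 in 12.7%. No cell type here is known to lack these genes, so no background share from free RNA could be measured. For each of the 36 pairs, the cells with both genes were set beside the product of the shares. The product lay below the exact binomial interval for 29 pairs and above it for 0. Over all 60285690 pairs of the 10981 genes found in a share of cells within the range of the 9, this held for 4.15% and 3.39%, with a median ratio of 1. All 28 pairs among the 8 genes other than MDM4 were of the first kind (median ratio 1.404), and so was 1 of the 8 pairs with MDM4. This pair, MDM4 with SESN1, had a ratio of 1.07.

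CDKN1A and PHLDA3, the rarest of the 9, had the highest ratio. Both were found in 89 cells, 6.702 times the product of the shares (5.39 to 8.24). PHLDA3 was found in 17.6% of cells with CDKN1A and in 2.05% of cells without it. CDKN1A and PTCHD4 were found in 246 cells, 3.82 times the product of the shares (3.36 to 4.32), and PHLDA3 and PTCHD4 in 156 cells, 3.37 times the product of the shares (2.87 to 3.94). The apoptosis gene BBC3 was found with CDKN1A in 86 cells, 2.83 times the product of the shares (2.27 to 3.497). For the abundant genes the ratios were near 1, for example 1.05 for MDM2 with RPS27L, where 2299 cells held both. The ratio cannot exceed 1 divided by the larger share of the pair, so abundant genes cannot reach the ratios of rare ones. The feedback pair MDM2 and MDM4 was found in 1184 cells, 1.03 times the product of the shares (0.975 to 1.09).

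Taking phase and state together lowered the highest ratios. With the product taken within each phase and contractile state and then summed, the CDKN1A and PHLDA3 ratio was 2.89 in place of 6.702, that of CDKN1A and PTCHD4 was 2.66 in place of 3.82, and the median over the pairs without MDM4 was 1.32. Within contractile-low cells alone the CDKN1A and PHLDA3 ratio was 6.98 on 34 cells, and 6.97 with the product taken by phase. Contractile-high cells had 2.57 and 2.12 for this pair, so taking phase into account lowered the ratio there and not in contractile-low cells. Both genes were found in a larger share of contractile-high cells, which limits how high the ratio can be. The size of the ratio is therefore not compared between the states. With the product summed over phases and states, all 28 pairs without MDM4 stayed above it, and 0 of those with MDM4 did. Within a single state, with the product taken by phase, this did not hold. In contractile-high cells several pairs, such as MDM2 with RPS27L (1.09), were not above it, and MDM4 with PTCHD4 (1.27) was. In contractile-low cells pairs such as MDM2 with BBC3 (1.09) were not, and MDM4 with SESN1 (1.07) was. Among contractile-low cells alone 26 pairs were above the product, and among the 1581 thinned contractile-high cells 23. Thinning to 10000 UMIs, which left out 772 cells (55 contractile-high), gave 25 pairs above and 0 below. The share over all gene pairs was not taken for the counts within strata, within a state or at this depth.

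**Figure D3:**
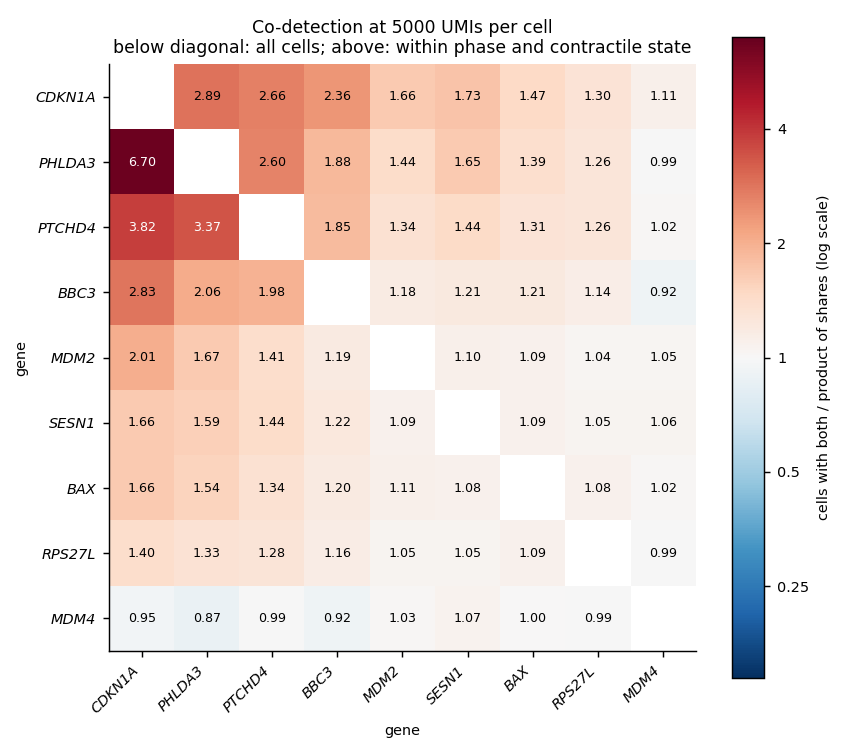
Cells with a UMI of both genes divided by the product of the 2 shares, for each pair of the 9 genes (both axes), in cells thinned to 5000 UMIs. The colour is on a log scale, the lower left shows all cells and the upper right the product taken within phase and contractile state. The largest value is that of CDKN1A with PHLDA3 (6.702), followed by CDKN1A with PTCHD4 (3.82), and values are near 1 in the row and column of MDM4.

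A typical cell held UMIs of few members. At 5000 UMIs the mean was 2.03 of the 9 genes per cell, and 636 of 13897 cells (4.58%) held 5 or more. In contractile-high G1 cells this share was 27.9% (23.4 to 32.9%), against 6.91% (4.89 to 9.44%) in contractile-high S and 6.91% (5.14 to 9.05%) in contractile-high G2/M cells. Contractile-low cells had shares of 4.56% (3.88 to 5.31%) in G1, 3.29% (2.82 to 3.81%) in S and 3.34% (2.79 to 3.96%) in G2/M. Most contractile-high G1 cells were thus below 5 members at this depth, where missed UMIs cannot be told from differences between cells. The summed UMIs of the 9 genes in these cells had a median of 7 with a range from the 10th to the 90th percentile of 1 to 14.6, against a median of 2 and a range of 0 to 6 in contractile-low G1 cells. Of the 636 cells with 5 or more members, 29.2% were contractile-high and 40.4% were called G1, compared with 10.5% and 26.5% of the other cells. They had a median of 23591 UMIs before thinning, against 17756, and 8.81% of them were among the 8% of barcodes with the highest doublet scores, against 7.81%.

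**Figure D4:**
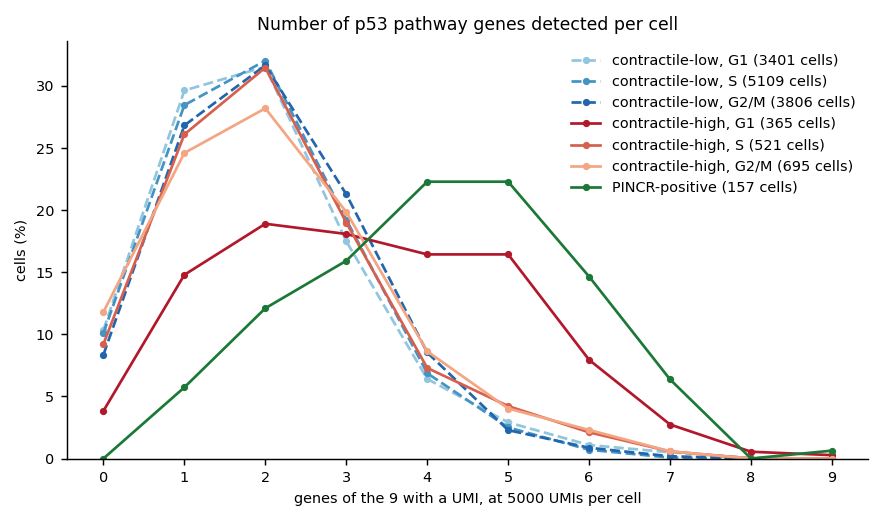
Share of cells (%, y axis) by the number of the 9 genes with a UMI at 5000 UMIs per cell (x axis), for each phase and contractile state and for cells with a PINCR UMI. All 6 combinations of phase and state peak at 2 genes, and contractile-high G1 cells spread furthest to the right among them, with 27.9% at 5 or more, and PINCR-positive cells further still (43.9%).

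PINCR is a long noncoding RNA that p53 induces and is no member of the 9. It was taken, with earlier results known, as a further p53 target by which to pick cells. A PINCR UMI was found in 157 of 13897 thinned cells. They included 10.4% of contractile-high G1, 1.15% of contractile-high S and 2.3% of contractile-high G2/M cells. In contractile-low cells the shares were 1.44% in G1, 0.47% in S and 0.631% in G2/M. Of the PINCR-positive cells 38.2% were contractile-high and 55.4% were called G1. In these cells 8 of the 9 genes were at least 1.5-fold higher than in PINCR-negative cells (MDM4 was not) and 0 lower, beside 12.9% and 19.5% of all genes. Levels in PINCR-positive and PINCR-negative cells were 427 CPM (409 to 445) and 71.8 CPM (70.9 to 72.8) for MDM2, 170.2 CPM (159 to 182) and 14.02 CPM (13.6 to 14.4) for CDKN1A, and 76.9 CPM (69.3 to 84.97) and 77.4 CPM (76.4 to 78.4) for MDM4.

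The same was seen without contractile-high cells. Among contractile-low cells, 97 had a PINCR UMI and 12219 did not, with median depths of 18994 and 16919 UMIs. Again 8 of the 9 genes were higher and 0 lower, beside 13.2% and 16.7% of all genes. The ratio was 13.7 (11.6 to 16.1) for CDKN1A, 8.16 (6.36 to 10.3) for PHLDA3, 6.69 (6.15 to 7.28) for PTCHD4 and 4.05 (3.71 to 4.42) for MDM2. It was 4.04 (3.28 to 4.93) for BBC3, 2.82 (2.67 to 2.97) for RPS27L, 2.63 (2.42 to 2.84) for BAX and 2.62 (2.297 to 2.98) for SESN1, so SESN1, which was not higher in contractile-high cells over all phases, was among the genes higher here. MDM4 had a ratio of 1.21 (1.05 to 1.38). Of the genes that set the contractile limit, ANXA1 and CTGF were higher in these PINCR-positive cells, at 1.82 (1.25 to 2.57) and 1.66 (1.35 to 2.01), and TFPI2 was at 1.07 (0.643 to 1.68), with a summed level of 72.9 against 46.05 CPM. Of the 7 contractile markers 1 was higher (ACTA2, 1.79) and 2 were lower (TAGLN, 0.634, and NPPB, 0.667). The part of these genes in the result was not tested. Of the immediate early and heat shock genes 0 of 10 were at least 1.5-fold higher in these cells. In contractile-high G1 cells without a PINCR UMI, MDM2 was still at 219 CPM (212 to 227) and CDKN1A at 108 CPM (103 to 114).

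**Figure D5:**
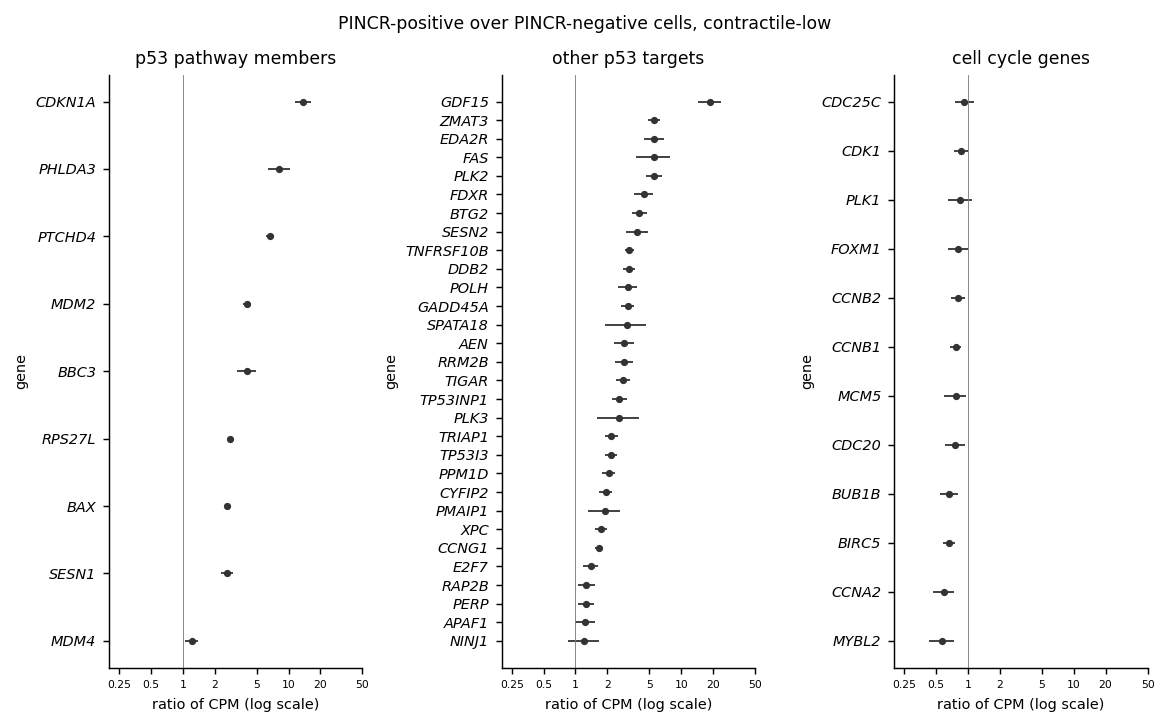
Ratio of CPM (x axis, log scale) between PINCR-positive and PINCR-negative contractile-low cells for the 9 genes, 30 other p53 targets and 12 cell cycle genes (y axes). Bars are exact 95% intervals of the ratio. CDKN1A (13.7) and GDF15 (18.7) lie furthest right, and the cell cycle genes lie between 0.565 and 0.924.

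Other known p53 targets were mostly higher in PINCR-positive cells too. Of 30 further targets besides PINCR, 25 were at least 1.5-fold higher in PINCR-positive contractile-low cells and 0 lower, beside 13.2% and 16.7% of all genes (median ratio 2.86, over all genes 0.979). GDF15, a stress-induced cytokine, had a ratio of 18.7 (14.3 to 24.02). ZMAT3, an RNA-binding protein, had 5.56 (4.86 to 6.34), the death receptor FAS 5.53 (3.75 to 7.89) and the receptor EDA2R 5.55 (4.43 to 6.89). Between contractile-high and contractile-low cells 12 of all 31 targets were higher and 0 lower, beside 12.3% and 41.1% of all genes. Within G1 24 were higher and 0 lower (14.6% and 37.6% of all genes), within S 9 and 3 (11.4% and 36.9%), and within G2/M 8 and 3 (11.8% and 39.7%). In G1 the kinase PLK2 had a ratio of 13.9 (12.9 to 15.01), PMAIP1, which encodes the BH3-only protein NOXA, 10.6 (8.76 to 12.9), and GDF15 14.4 (12.4 to 16.7). Against G1, S cells had 12 of the targets lower and 3 higher (10.4% and 9.3% of all genes). Split by state, 18 were lower and 0 higher in contractile-high cells, where 8.99% and 10.3% of all genes were, but 4 lower and 5 higher in contractile-low cells, where 10.7% and 10.2% were. Over all cells the higher ones were E2F7 (3.07), a repressor of the cell cycle, PMAIP1 (1.64) and DDB2 (1.57), which acts in nucleotide excision repair.

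Of the 13 genes for upstream regulators and relatives of p53, 0 were at least 1.5-fold higher and 7 lower in contractile-high cells, with a median ratio of 0.653 beside 0.7602 over all genes, of which 12.3% were higher and 41.1% lower. Low ratios were those of the p53 relative TP73 (0.289) and the checkpoint kinase CHEK2 (0.524). In PINCR-positive contractile-low cells 1 of the 13 was higher, TP73, on 3 UMIs with a ratio of 3.96 (0.799 to 11.97), and 1 lower, TP63, on 1 UMI with 0.588 (0.0148 to 3.32), so neither could be told from 1. The 12 cell cycle genes that p53 lowers through p21 and the DREAM complex included 4 lower and 0 higher in those cells, where 16.7% of all genes were lower and 50.5% of cells were called G1 against 27.4% of PINCR-negative ones (median ratio 0.765). The genes behind the S and G2/M scores had median ratios of 0.742 and 0.748, and the part of the phase mix was not tested. The 3 with the lowest ratios were the transcription factor gene MYBL2, at 0.565 (0.424 to 0.738), the cyclin A2 gene CCNA2, at 0.592 (0.469 to 0.739), and the survivin gene BIRC5, at 0.659 (0.573 to 0.755). Of 15 other BCL2 family and caspase genes 2 were higher and 0 lower, beside 13.2% and 16.7% of all genes. These were BIK, at 1.93 (0.394 to 5.74), and CASP8, at 1.804 (0.369 to 5.36), both on 3 UMIs in the PINCR-positive cells, so neither could be told from 1. Between contractile-high and contractile-low cells 2 of the 12 cell cycle genes were lower and 0 higher, beside 41.1% and 12.3% of all genes. Their median ratio was 0.935, against 0.7602 over all genes. Within G1 3 were higher and 3 lower (14.6% and 37.6% of all genes), with a median ratio of 1.299 against 0.801. Of contractile-high cells 23.1% were called G1 and 43.9% G2/M, against 27.6% and 30.9% of contractile-low cells.

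Genes with the pattern most like that of the 9 were looked for over all 9858 other genes with a UMI in at least 5% of thinned cells, by Pearson's r between log2(UMIs + 1) of a gene and of the summed members over 13897 cells. All points come from 1 library and 1 depth. RPS27L, followed by BAX, had the most UMIs of the 9 and so weighed most on this sum. The 10 highest were ZMAT3 (0.22), ASCC3 (0.21), PURPL (0.19), NEAT1 (0.18), PVT1 (0.17), PLK2 (0.16), HS3ST4 (0.16), RPS19 (0.16), S100A11 (0.15) and FTL (0.15). ZMAT3 and PLK2 were on the list of other p53 targets used here, 14 of whose 22 ranked genes were among the first 100 of the 9858. Genes off this list were not checked for being p53 targets. All correlations were weak, as is usual in sparse counts, and they are given only for their order.

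Each member was also set against the sum of the other 8 and ranked among the same genes. PTCHD4 had r = 0.27 (rank 1), RPS27L 0.25 (rank 1), BAX 0.20 (rank 3), MDM2 0.14 (rank 10), BBC3 0.11 (rank 30) and SESN1 0.08 (rank 56). CDKN1A and PHLDA3, which were under the 5% limit, had 0.24 (rank 1) and 0.16 (rank 5). MDM4 had r = 0.0050 (rank 2789). Within contractile-low G1 cells alone (3401 cells) PTCHD4 had 0.34 (rank 1), RPS27L 0.25 (rank 1), SESN1 0.13 (rank 25) and MDM4 0.0070 (rank 3302). Within contractile-high cells (1581 cells) PTCHD4 had 0.44 (rank 1), RPS27L 0.47 (rank 1), MDM2 0.36 (rank 3) and SESN1 0.10 (rank 215). There the other genes most like the 9 were led by RPS19 and FTL and included FTH1, EEF1A1 and TPT1, which are found in nearly every cell, beside PURPL, ZMAT3, NEAT1, S100A11 and ASCC3.

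Depth went with some of these levels. In contractile-low cells, from the shallowest 25% to the deepest 25% of cells (medians of 11466 and 28470 UMIs), MDM2 went from 48.5 to 74.2 CPM, CDKN1A from 3.53 to 9.54, PTCHD4 from 25.96 to 53.3 and BBC3 from 15.6 to 10.1 CPM. The share called G1 went from 53.4% to 7.68%. The shallowest 25% of contractile-high cells, with a median of 24502 UMIs, were less deep than the deepest contractile-low cells and had MDM2 at 94.7 CPM (88.4 to 101) and CDKN1A at 37.3 CPM (33.4 to 41.5). The deepest contractile-low cells had 74.2 CPM (72.5 to 75.98) and 9.54 CPM (8.93 to 10.2). The share called G1 was 36.1% in the former and 7.68% in the latter, so phase was not matched, and the part of depth was not tested.

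Cells with the neuronal genes STMN2, KCNIP4 and SGCZ at 10 or more UMIs per 10000 together numbered 98, of which 88.8% were called G1 and 7.14% were contractile-high as well. Without these contractile-high cells, CDKN1A was at 0.722 CPM (1 UMI) against 6.31 CPM in the other contractile-low cells, a ratio of 0.114 (0.00289 to 0.638). BBC3 and SESN1 were higher, with ratios of 1.95 (1.33 to 2.75) and 1.62 (1.31 to 1.98), and PTCHD4 was lower, at 0.626 (0.441 to 0.864). By the 1.5-fold rule 2 of the 9 were higher and 2 lower, beside 22% and 33.6% of all genes. Phase was not matched here. BBC3 was at 23.1 and SESN1 at 69.3 CPM in these neuron-marker-high cells, beside 18.6 and 45.8 CPM in all contractile-low G1 cells.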

How the data were processed

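The authors aligned the reads to GRCh38 and counted UMIs with Cell Ranger 7.0.1 at default settings, per the file headers and the submitters' notes, and deposited whole-number counts per gene and barcode. Seurat 4.4.0 is named in those notes. The annotation version and the use of strand were not given in the sources used here. From the deposited counts, cells with 2000 to 10000 genes and under 10% mitochondrial UMIs were kept. Members and lists were chosen with earlier results of these data known. From each list the text names up to 5 genes with the highest and 3 with the lowest ratio, with PINCR and RPS27, and 1 named gene is not reported here. Levels were pooled CPM with exact Poisson intervals, ratios had exact conditional intervals and shares Clopper-Pearson intervals, all at 95%. A gene was counted as higher or lower at a ratio of 1.5 or 0.667 when both groups together held 50 UMIs. The ratio step was tested on Poisson counts drawn without spread between cells, which could not show whether its intervals are too narrow here. The correlation step was tested on simulated counts, and the co-detection step was not tested in this way. Phases were scored with scanpy 1.11.5 under Python 3.11.15 and scipy 1.17.1. Scrublet marked 1 barcode and so had not worked, and no doublet was removed. Instead, the 8% highest scores were left out as an alternative. Positions came from GENCODE. Other alternatives were the denominator, the weight of each cell, the depth after thinning, the limits of each state and the fold. Those relative to the median gene and without PINCR-positive cells were chosen after seeing the data.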

Additional observations from a re-analysis of the deposited data

Results flagged for a closer look

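Barcodes outside the quality limits were used in no main comparison, only in the alternative over all barcodes. The 9 genes were found in the barcodes outside the limits above the level that 3 UMIs would give. Their summed level was 691 CPM in the 520 barcodes with under 2000 genes and 678 CPM in the 430 with too high a mitochondrial share, beside 670.2 CPM in all kept cells. In the 94 barcodes with over 10000 genes it was 1182 CPM, with CDKN1A at 101 CPM (94.5 to 107) and MDM2 at 214 CPM (205 to 224). Of these 85.1% met the contractile limit and 46.8% were among the 8% highest doublet scores, and the part of either in the level was not tested.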

How the results depend on the processing

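Of the 9 genes, 5 differed by at least 1.5-fold between contractile states. The number was 9, all higher, in UMIs per cell without scaling, where 65.8% of all genes were higher (median 1.91-fold), and 2 (CDKN1A and PHLDA3) at a fold of 2, where 7.84% were higher. For S against G1 it was 5, and it was 2 with each cell weighted alike (10.6% of all genes lower), 3 in thinned cells (12%), 2 within contractile-low cells (10.7%) and 2 at a fold of 2 (2.6%). For G2/M against G1 it was 5, all lower, and 3, all lower, under each of these settings (14.4%, 15.9%, 13.1% and 4.83% of all genes lower), while in UMIs per cell it was 3, with CDKN1A lower and MDM4 and BAX higher (57.6% of all genes higher). For TAGLN-high against TAGLN-low cells it was 2, and it was 5 in UMIs per cell, all higher (36.4% of all genes higher). It was 5 within G1, all higher (7.92% of all genes), and 0 at a fold of 2 (2.95% of all genes higher and 9.57% lower). It was 1 (BBC3, lower) with contractile-high from 2 UMIs per 10000 and 1 (CDKN1A, higher) with TAGLN from 20. The share over all genes was not taken at these last settings. The summed ratio of 1.39 between contractile states was 1.44 over all barcodes, 1.42 without the highest doublet scores, 1.45 with each cell weighted alike, 3.49 in UMIs per cell, 1.36 without mitochondrial and ribosomal protein genes in the total, 1.45 in thinned cells, 1.23 with contractile-high from 20, 2.38 within G1, 1.83 relative to the median gene and 1.32 without PINCR-positive cells. These other summed ratios lay outside the counting interval of the main ratio (1.375 to 1.401), and that with contractile-high from 2, at 1.395, lay inside. Of 360 ratios of single genes at other settings, 164 stayed within the interval of the main ratio, 192 lay outside it and 4 changed sign. In UMIs per cell 4 log2 ratios of genes counted as lower turned positive, to 0.65 for MDM4 between contractile states, 0.085 for MDM2 and 0.046 for PHLDA3 in G2/M against G1, and 0.011 for BBC3 with TAGLN. Ratios of some genes not counted as lower also rose above 1, such as RPS27L (from 0.719 to 1.199) and SESN1 (from 0.836 to 1.395) in G2/M against G1. UMIs per cell carry the depth of each cell by construction, and for the other settings the cause was not tested. The number of co-detected pairs stayed within 1.5 times of 29, between 24 (2500 UMIs per cell) and 28. The share over all gene pairs was not taken at these settings. No paired analysis was possible because there was 1 library. With 1 library, differences between cultures cannot be told apart from differences between cells, and rare genes such as PHLDA3 were missed in most cells at 5000 UMIs.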

Other observations

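Other inhibitors of cyclin-dependent kinases differed between the contractile states as well. CDKN2B, which encodes p15, was at 33.1 CPM in contractile-high and 0.7901 CPM in contractile-low cells, a ratio of 41.9 (36.1 to 48.9). CDKN2A, which encodes p16 and the MDM2 inhibitor ARF, was at 2.67 and 0.164 CPM (205 UMIs in contractile-high cells), a ratio of 16.3 (11.5 to 23.6). CDKN1B, which encodes p27, and CDKN2C were lower, with ratios of 0.648 (0.615 to 0.683) and 0.317 (0.169 to 0.5502). Of the 6 genes on this list 2 were thus higher and 2 lower, beside 12.3% and 41.1% of all genes. PINCR-positive contractile-low cells held 1 UMI of CDKN2B, so the level of CDKN2B seen in contractile-high cells was not seen there.

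Of 15 other genes of the BCL2 family and caspases, 5 were higher and 2 lower in contractile-high cells. BOK, a relative of BAX, was at 35.8 against 4.12 CPM, and BCL2L1, whose main product protects from apoptosis, was at 92.9 against 44.4 CPM. CASP9, the initiator caspase downstream of mitochondria, was at 4.71 against 8.54 CPM. Of all genes 12.3% were higher and 41.1% lower.

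A group of 189 kept cells had under 1% mitochondrial UMIs, of which 46.03% were contractile-high and 65.1% were called G2/M. Their median depth was 9536 UMIs, against 17900 in all kept cells, and their ribosomal protein share 21.96% against 13.8%, and the part of these in the levels was not tested. In them RPS27L was at 552 CPM (519 to 587) and CDKN1A at 42.8 CPM (33.9 to 53.3), while PTCHD4 was at 17.7 CPM (12.2 to 24.8) and SESN1 at 21.4 CPM (15.3 to 29.1). In all kept cells RPS27L was at 262, CDKN1A at 16.5, PTCHD4 at 48.2 and SESN1 at 41.01 CPM.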
